A study of Mus musculus with 6 samples.

Results

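The regions described here are the autosomal H3K9me3 regions that are annotated to the first intron of a gene. They were taken from the deposited region tables by their annotation, which had to name an intron and its order as intron 1 of the host transcript, on chromosomes 1 to 19. In all, 3565 regions met the rule, which is 6.24% of the 57177 autosomal regions and 29.1% of the intronic ones, out of 58511 regions in the series. Of the 3565, 3504 overlapped intron 1 of the host transcript in the GENCODE M21 annotation. A further 27 first-intron regions on the sex chromosomes were left out.

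Trimethylation of lysine 9 of histone H3 (H3K9me3) was measured by CUT&Tag, which uses an antibody-tethered transposase to cut and tag DNA around a chromatin mark, in endothelial progenitor cells (EPCs) from mouse bone marrow. M-EPC came from males, F-EPC from females with intact ovaries, and OVX-EPC from females ovariectomized at about 35 days of age. All were C57BL/6J mice of 8 weeks, and in every group the cells were selected magnetically for Sca-1 and CD31 and grown in EGM-2, an endothelial growth medium. Each group had 2 libraries of 25 bp paired-end reads. The labels do not tie the libraries of a group to separate animals, and they say that cells were frozen in duplicate vials, so p-values measure only the spread between these libraries, which may be technical. H3K9me3 does not report RNA, so the identity of the cells was not checked by marker expression. The first intron of Pecam1, the gene of CD31, held 2 regions with 7 and 6 reads for M-EPC, 16 and 13 for F-EPC, and 9 and 12 for OVX-EPC, and its summed signal did not pass the test in F-EPC against M-EPC (log2 fold change 0.69 ± 0.49 SE, limma adjusted p = 0.372).

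The libraries held 288353 to 573821 reads in regions. Reads of F-EPC replicate 1 stop on chromosome 16. F-EPC replicate 2 was incomplete too, with 0 reads in the first-intron regions of Zfp992, Tmem132d and Gm20388 (chromosomes 4, 5 and 8). M-EPC and OVX-EPC held reads there. F-EPC was therefore used only on chromosomes 1, 10 to 15 and 16 up to position 30557137. In that part lie 1628 of the first-intron regions, among 26999 regions of all kinds. These are called the covered regions. On them F-EPC was the deepest group, with 288353 and 252356 reads, against 200296 and 235301 for M-EPC and 209015 and 223313 for OVX-EPC. The median covered first-intron region held 5 to 7 reads per library, and M-EPC replicate 1 had the most empty ones, 112 of 1628, against 26 to 66 in the others. Counting error is therefore large for single regions, and moderate differences in a typical region were not detectable at this depth.

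H3K9me3 is written by the Suv39h enzymes and Setdb1 and read by HP1 proteins, and it packs chromatin into a silent state. It is best known from satellite repeats around centromeres, from retrotransposons and from the clusters of KRAB zinc finger genes, whose proteins recruit Setdb1 to repeats. First introns follow directly on the promoter and the first exon, often hold enhancers, and are as a rule the longest introns of a gene.

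The sequences below are the central 200 bases of 7 first-intron regions (build GRCm38/mm10, plus strand, CpG dinucleotides in capitals). The first 4 are shown because their signal differed between groups. Ube2d1, 8030442B05Rik and Cacng4 were lower in female cells in at least 1 comparison, and Gm26704 was higher.
Ube2d1 chr10:71272102-71272301: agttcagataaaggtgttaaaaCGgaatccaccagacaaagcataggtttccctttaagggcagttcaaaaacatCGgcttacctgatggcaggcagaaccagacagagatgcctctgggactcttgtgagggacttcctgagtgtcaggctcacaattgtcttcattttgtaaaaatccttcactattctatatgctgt
8030442B05Rik chr2:11355751-11355950: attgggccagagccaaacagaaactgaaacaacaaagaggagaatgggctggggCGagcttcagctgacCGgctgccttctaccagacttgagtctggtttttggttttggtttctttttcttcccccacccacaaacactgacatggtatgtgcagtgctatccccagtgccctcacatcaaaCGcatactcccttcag
Cacng4 chr11:107785382-107785581: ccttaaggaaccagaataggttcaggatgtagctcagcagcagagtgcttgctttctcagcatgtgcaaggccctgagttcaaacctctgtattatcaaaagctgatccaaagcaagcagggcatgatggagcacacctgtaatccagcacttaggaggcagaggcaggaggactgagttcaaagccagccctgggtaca
Gm26704 chr15:38908429-38908628: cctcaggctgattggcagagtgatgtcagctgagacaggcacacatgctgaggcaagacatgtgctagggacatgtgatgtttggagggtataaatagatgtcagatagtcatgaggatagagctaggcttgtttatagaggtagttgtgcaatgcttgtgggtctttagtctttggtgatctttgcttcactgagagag
The other 3 are shown because they carried the highest signal of all first-intron regions.
Mdga2 chr12:67059370-67059569: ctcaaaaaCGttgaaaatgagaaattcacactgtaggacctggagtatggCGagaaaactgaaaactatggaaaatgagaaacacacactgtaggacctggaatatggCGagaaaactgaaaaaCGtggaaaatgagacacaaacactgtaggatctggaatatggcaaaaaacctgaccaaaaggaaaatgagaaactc
E030030I06Rik chr10:22142618-22142817: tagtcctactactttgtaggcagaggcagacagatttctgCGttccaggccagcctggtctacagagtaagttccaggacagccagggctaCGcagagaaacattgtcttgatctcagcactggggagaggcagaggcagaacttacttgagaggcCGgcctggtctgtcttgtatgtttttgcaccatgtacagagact
Filip1l chr16:57391462-57391661: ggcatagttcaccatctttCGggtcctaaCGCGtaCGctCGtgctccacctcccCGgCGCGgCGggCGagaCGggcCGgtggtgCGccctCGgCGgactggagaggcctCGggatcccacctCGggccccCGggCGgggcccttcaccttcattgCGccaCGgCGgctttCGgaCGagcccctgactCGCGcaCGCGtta
The windows of Cacng4 and Gm26704 held no CpG, those of Ube2d1 and 8030442B05Rik held 2 and 3, and that of Filip1l held 28. CpG-rich sequence was thus no common property of the windows shown.

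The 3565 regions lay in 1932 host genes, of which 1613 were protein-coding, 165 were lincRNA genes and 80 were antisense genes in the GENCODE annotation. Most hosts, 1212, held a single region, 102 held 5 or more and 19 held 10 or more. These 19 genes took 345 regions, or 9.68% of the total. Neighbouring regions of 1 intron share their gene and are not independent members. The host with the most regions was Gm20388, a predicted gene model on chromosome 8 whose annotated first intron spans 4384 kb and contains other genes. Its 94 regions made up a large part of the 237 first-intron regions of chromosome 8, the chromosome with the highest share of first-intron regions (10.5% of its regions, against 3.95% on chromosome 7). Among the next hosts Fgf14, an intracellular regulator of sodium channels, held 21 regions, Nkain2 20, Gm42416 19, the cadherin gene Cdh18 18, the receptor phosphatase gene Ptprt 17, the heparan sulfate sulfotransferase gene Hs6st3 17, Pcdh15 16, the ion channel gene Asic2 14, and the sarcoglycan gene Sgcd 13.

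Regions lay deep in these introns, in part by the rule, since the annotation counts regions within 3 kb of a gene start as promoters. The median distance from the start of the host transcript was 27.6 kb (quartiles 11.95 and 67.9 kb), and the median first intron that held a region was 39.8 kb long. Few regions, 23, lay less than 3 kb downstream of the start or upstream of it. Another 677 lay at 3 to 10 kb, 1185 at 10 to 30 kb, 1051 at 30 to 100 kb and 607 at 100 kb or more. For 2420 regions (67.9%) the gene with the nearest start was the host itself, and for the others it was a different gene.

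In base composition first-intron regions resembled later-intron regions rather than promoters, from which the annotation had set them apart by distance to a gene start. The median GC content was 47.8% in first introns, 47.3% in later introns and 56.8% in promoters. The median number of CpG per 100 bp was 0.75 in both kinds of intron and 4.25 in promoters. Repeat-masked sequence covered a median 22.8% of a first-intron region, 20.3% of a later-intron region and 36% of a distal intergenic region. The mean level over the M-EPC and OVX-EPC libraries, in reads scaled to a common library total (CPM), had a median of 11.6 in first introns, 10.8 in later introns, 17.5 in promoters and 11.5 in distal intergenic regions. Motifs of 4 transcription factor families were counted on both strands of the 400 bp regions. The AP-1 site TGACTCA was present in 9.89% of first-intron, 8.97% of later-intron and 8.06% of all autosomal regions. The RUNX site TGTGGTT was present in 10.3%, 9.55% and 8.79%, the GATA site AGATAAG in 4.55%, 4.62% and 4.53%, and the ETS site CCGGAAG in 2.01%, 1.58% and 4.23%, in the same order. A match says only that these letters occur in a region.

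The 10 strongest first-intron regions held 3.49% of all first-intron reads. The strongest lay 163 kb into the first intron of Mdga2, a gene for a membrane-anchored protein of synapses (chr12:67059270-67059669, 417 CPM), and held 165 and 200 reads for M-EPC, 327 and 295 for F-EPC, and 225 and 279 for OVX-EPC. Its sequence matched itself at an offset of 58 bases over 63.5% of positions, against a median best match of 31.8% over 3540 first-intron regions, of which 47 reached 60% or more. Only 48.9% of its 25-base windows occurred once in the genome, so reads placed there can come from other copies. E030030I06Rik followed with 368 CPM and 46.8% unique windows, and Filip1l, whose protein interacts with filamin, with 240 CPM, 39.6% unique windows and 64% GC. The region of Gm20388 had 167 CPM, that of the centrosomal gene Cep57l1 138, D830044D21Rik 135, the zinc finger gene Zfp763 129, the diacylglycerol kinase gene Dgki 128, Gm26561 128 (48.7% unique windows) and AU041133 126. Over all first-intron regions the median share of unique windows was 94.9%, and 379 regions (10.6%) were below 50%. Of the 10 strongest, 4 were below 50%, while Cep57l1 (98.1%), D830044D21Rik and Dgki (100% each) were above the median.

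The first question was whether the mark was distributed differently over first introns in male and female cells. First introns took a slightly larger share of region reads in M-EPC than in either female group. On covered regions the share was 5.48% and 5.69% for M-EPC, 5.31% and 5.13% for F-EPC, and 5.41% and 5.26% for OVX-EPC. Both M-EPC libraries lay above all female libraries, and the groups of females overlapped. The means were 5.59% ± 0.149 (SD, n = 2), 5.22% ± 0.125 and 5.34% ± 0.109. Wilson 95% intervals of single libraries, which cover counting error only, ran from 5.05% to 5.22% for the lowest and from 5.60% to 5.79% for the highest library. As a share of intronic reads, the values were 30.2% in both M-EPC libraries, 28.9% and 29.0% for F-EPC, and 29.4% in both OVX-EPC libraries, and the 3 groups did not overlap. Over all autosomal regions, first introns took 5.71% and 5.84% of reads in M-EPC and 5.54% and 5.51% for OVX-EPC.

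The difference in the share of region reads was -0.365 percentage points for F-EPC minus M-EPC, -0.248 for OVX-EPC minus M-EPC over all autosomes, and 0.112 for OVX-EPC minus F-EPC. In the share of intronic reads the differences were -1.22, -0.749 and 0.460 percentage points. With 2 libraries against 2, the two-sided exact permutation test cannot go below 0.333, and it gave 0.333 for all of the 6 differences (adjusted p = 0.4) but the 0.112 points, which gave 0.667 (exact test). The OVX-EPC against M-EPC difference in the share of region reads turned to 0.0276 points when only regions with at least 30 normalized reads in 2 libraries were counted.

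**Figure D1:**
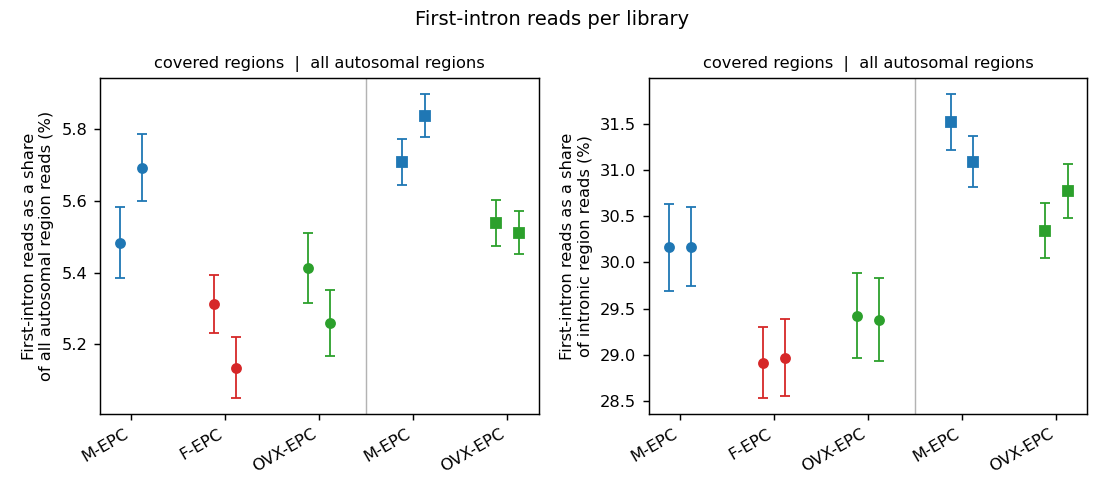
First-intron reads of each library as a percentage of all autosomal region reads (left) and of intronic region reads (right), with Wilson 95% intervals as bars. Circles are covered regions and squares all autosomal regions, and the M-EPC libraries (5.48% and 5.69% on covered regions) lie above the F-EPC (5.31% and 5.13%) and OVX-EPC libraries (5.41% and 5.26%). The vertical axes do not start at 0.

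Single regions were then compared between F-EPC and M-EPC. Of the 433 covered first-intron regions that passed the filter on low values (a normalized read count of at least 10 in at least 2 of the 4 libraries), 13 differed (3.002%), 3 higher and 10 lower in F-EPC. Over all 8139 regions tested, 1.79% were called in either direction, 1.62% lower and 0.172% higher. The lower regions lay in Ube2d1, Zfp729a, Syt2 (2 regions), Hdac2, Cacng4, Grap2, D830044D21Rik, 2610037D02Rik and Gm10778, and the higher ones in Gm26704, Sdk2 and Fam120a. The median log2 fold change of the 433 regions was -0.26 (quartiles -0.70 and 0.16), and 64.9% were lower in F-EPC. The median was -0.19 over all regions tested, -0.19 in later introns, -0.40 in promoters and -0.01 in distal intergenic regions. The filter uses the values compared, and without it the median over all regions was 0.05. With 2 libraries against 2, a region can pass the filter through 1 group alone. The values of the groups then cannot overlap, so a lack of overlap there adds nothing. The values in this paragraph and the next ones are read counts normalized within a comparison by the authors, fold changes are on the log2(value + 1) scale, and adjusted p-values are from limma with Benjamini-Hochberg adjustment over all regions tested.

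Ube2d1 encodes a ubiquitin-conjugating enzyme. Its region (chr10:71272002-71272401, 13.1 kb into a first intron of 22.8 kb) had normalized read counts of 20.01 and 31.4 for M-EPC and 1.60 and 1.84 for F-EPC. Both F-EPC libraries held 2 reads there, far below both M-EPC libraries, and the log2 fold change was -3.26 ± 0.549 (SE, limma adjusted p = 0.00317). Among the alternatives in which it was tested, it lost the call in 1, without M-EPC replicate 2 (-2.95, limma adjusted p = 0.0812).

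Hdac2 encodes a histone deacetylase. In its region (chr10:36981801-36982200, 7.46 kb into an intron of 10.3 kb) the normalized read counts were 33.8 and 41.6 for M-EPC and 11.2 and 13.8 for F-EPC, with no overlap (log2 fold change -1.52 ± 0.320, limma adjusted p = 0.0172). Zfp729a is a zinc finger gene of a cluster on chromosome 13. Its region (chr13:67628330-67628729) had 58.8 and 49.7 for M-EPC and 20.8 and 21.2 for F-EPC (-1.32 ± 0.274, limma adjusted p = 0.0157). Only 50.3% of its 25-base windows were unique, so reads placed there can come from other copies. Where these copies lie was not examined.

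Syt2 encodes a synaptotagmin, a calcium sensor of vesicle release. The first of its called regions (chr1:134655894-134656293) had 21.3 in both M-EPC libraries and 4.79 and 4.61 for F-EPC (log2 fold change -1.97 ± 0.413, limma adjusted p = 0.0172), and the second (chr1:134679377-134679776) had 38.8 and 44.6 against 22.3 and 13.8 (-1.19, limma adjusted p = 0.0445). F-EPC was the lower group without overlap in both. The first Syt2 region, like that of Ube2d1 above and that of Cacng4 below, passed the filter through M-EPC alone. Cacng4 encodes a transmembrane subunit of AMPA receptors and calcium channels, and its region (chr11:107785282-107785681) had 25.0 and 24.3 for M-EPC and 6.38 and 7.38 for F-EPC (-1.71 ± 0.368, limma adjusted p = 0.0192). The other called regions fell by 1.20 (Grap2, an adaptor of T cell receptor signalling), 1.01 (D830044D21Rik), 1.39 (2610037D02Rik) and 1.38 (Gm10778) on the log2 scale.

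The 3 higher regions were low in M-EPC. Gm26704 is a non-coding gene that starts beside a promoter of the opposite strand, and the gene start nearest to its region (chr15:38908329-38908728) was that of Baalc. The region lay 97.7 kb from the start of Gm26704. Its place in a first intron rests on the deposited annotation, since no such intron was found in the GENCODE M21 transcript. The region had 7.502 and 3.04 for M-EPC and 31.1 and 19.4 for F-EPC (log2 fold change 2.13 ± 0.431, limma adjusted p = 0.0157). The host held 6 regions, and their sum was not called (0.32, limma adjusted p = 0.404), so the higher signal was seen in this region and not in the sum. Sdk2 encodes sidekick 2, an adhesion protein of synapses. Its region (chr11:113968206-113968605, 97.8 kb into an intron of 123 kb) had 5.002 and 7.10 for M-EPC and 22.3 and 19.4 for F-EPC (1.65 ± 0.396, limma adjusted p = 0.0337). Fam120a encodes an RNA-binding scaffold protein, and its region (chr13:48962545-48962944) had 2.50 and 4.05 for M-EPC and 15.96 and 19.4 for F-EPC (2.14 ± 0.520, limma adjusted p = 0.0350).

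The count of 13 moved with the libraries. With the same 433 regions tested, it was 12 without M-EPC replicate 1 (8 of them among the 13), 39 without M-EPC replicate 2, 7 without F-EPC replicate 1 and 12 without F-EPC replicate 2. With the filter on low values applied again after leaving out a library, which removes regions that are high in the lone library alone, it was 0, 11, 4 and 7. DESeq2 called 1 and edgeR 12 of 461 first-intron regions, beside 7 and 124 of all 9084 regions. M-EPC replicate 1 also stood apart in base composition. Covered first-intron regions under 40% GC took 3.52% of its first-intron reads, against 4.42% for M-EPC replicate 2, 5.06% and 4.78% for F-EPC, and 5.16% in both OVX-EPC libraries. The part of base composition in the differences was examined only by a correction for GC content. Under it 33 of the 433 first-intron regions were called, beside 353 of all 8139 regions tested.

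OVX-EPC could be compared with M-EPC on all autosomes. Of 942 first-intron regions that passed the filter, 4 were called (0.425%), all lower in OVX-EPC. Over all 16931 regions tested, sex chromosomes included, 0.449% were called in either direction and 0.402% lower. Among the 16616 autosomal ones, 0.403% were called, 0 of them higher. The share of first-intron regions called was near that background. The median log2 fold change of the 942 regions was -0.18, and 64.1% were lower. The median was -0.16 over all regions, -0.18 in later introns, -0.28 in promoters and -0.04 in distal intergenic regions. Without the filter, the median over all regions was 0.01. This comparison and that of F-EPC share the M-EPC libraries, so they are not independent.

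The called regions lay in 8030442B05Rik, Ube2d1, Ksr2 and Cdyl2. 8030442B05Rik is a lincRNA gene, and its region (chr2:11355651-11356050) had normalized read counts of 44.1 and 35.2 for M-EPC and 14.2 and 10.4 for OVX-EPC (log2 fold change -1.62 ± 0.316, limma adjusted p = 0.00962). The Ube2d1 region had 17.2 and 28.0 for M-EPC and 6.07 and 2.84 for OVX-EPC (-2.14 ± 0.462, limma adjusted p = 0.0272). OVX-EPC was thus lower at the region that was also lower in F-EPC. The Ube2d1 region again passed the filter through M-EPC alone, so the groups could not overlap.

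Ksr2 encodes a scaffold of the Raf-MEK-ERK kinase cascade, and its region (chr5:117445899-117446298) had 57.0 and 44.3 for M-EPC and 22.3 and 17.0 for OVX-EPC (-1.32 ± 0.286, limma adjusted p = 0.0273). Cdyl2 encodes a chromodomain protein of a family that binds methylated H3K9. Its region (chr8:116684324-116684723) had 22.6 and 28.0 for M-EPC and 4.05 and 9.46 for OVX-EPC (-1.85 ± 0.403, limma adjusted p = 0.0294), and 47.9% of its windows were unique. Like that of Ube2d1, it passed the filter through M-EPC alone. No first-intron region was called higher in OVX-EPC. The 3 higher regions with the smallest p lay in Gm14266 (log2 fold change 1.61, limma adjusted p = 0.133), Sdk2 (1.24, 0.144) and Gm26704 (1.70, 0.154). With the same regions tested, 0 were called without either M-EPC replicate, 5 without OVX-EPC replicate 1 and 11 without OVX-EPC replicate 2, of which 3 and 3 were among the 4. With the filter applied again the counts were 0 or 1. DESeq2 called 0 and edgeR 4 of 1078 first-intron regions, beside 17 and 139 of all 19233 regions.

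**Figure D2:**
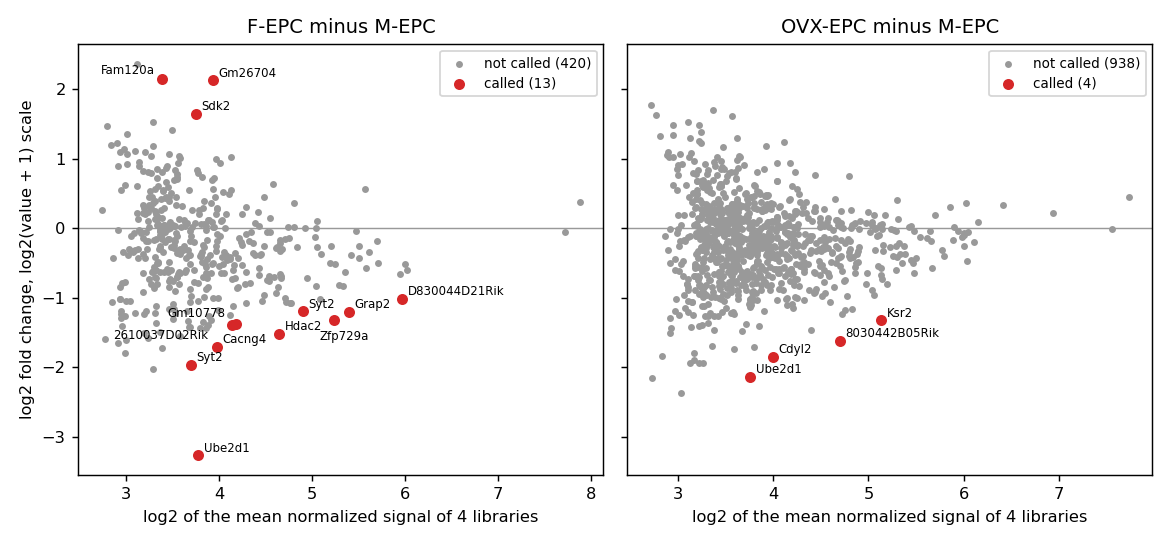
Log2 fold change of each tested first-intron region against the log2 of its mean normalized signal, for F-EPC minus M-EPC (left, 433 regions) and OVX-EPC minus M-EPC (right, 942 regions). Red points passed the limma test, 13 on the left and 4 on the right, and Ube2d1 has the lowest value of the called regions in both (-3.26 and -2.14).

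OVX-EPC and F-EPC were compared to ask what ovariectomy changed. No first-intron region was called by limma among 398 tested, nor by DESeq2 or edgeR, 25 had an unadjusted p under 0.05, and 0.0127% of all regions tested were called. The median log2 fold change of the 398 regions was 0.02, beside 0.03 over all regions. The 3 smallest p-values in each direction, all with a limma adjusted p of 0.768, belonged to regions of D830044D21Rik (log2 fold change 0.78), Zfp729a (0.91) and the interferon-inducible gene Ifi213 (0.97), which had higher values in OVX-EPC, and of Fam84b (-0.92 and -0.99) and the lysosomal protease gene Lgmn (-0.88), which had lower values. None of these differences passed the test.

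The mean of both female groups was then set against M-EPC in a single fit of all 6 libraries. A call therefore does not show that each female group differs from M-EPC. Of 439 first-intron regions tested, 26 were called (5.92%), 19 lower and 7 higher in the female mean. Of all 8695 regions, 3.78% were called in either direction, 2.69% lower and 1.09% higher. Zfp729a was among the lower (log2 fold change -0.87, limma adjusted p = 0.0222), while OVX-EPC against M-EPC alone gave -0.38 (0.465). The Grap2 region chr15:80626532-80626931 had -0.88 (0.0178), and OVX-EPC alone -0.50 (0.344). The lower regions again included Ube2d1, Hdac2, Cacng4 and Syt2, and the higher ones Gm26704, Fam120a and Sdk2, in a fit that shares libraries with the comparisons above.

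On the scale of the 6 libraries, the Cacng4 region had normalized read counts of 24.0 and 23.3 for M-EPC, 6.14 and 7.05 for F-EPC, and 4.27 and 9.08 for OVX-EPC (log2 fold change -1.73, limma adjusted p = 0.00264). The Hdac2 region had 32.4 and 39.8 for M-EPC, 10.7 and 13.2 for F-EPC, and 17.1 and 15.1 for OVX-EPC (-1.31, limma adjusted p = 0.00281). Ccdc122, whose product is a coiled-coil protein, had 46.8 and 23.3, then 17.6 and 13.2, then 11.7 and 10.1 (-1.29, limma adjusted p = 0.00469). In all of these every female library lay below both M-EPC libraries, while the M-EPC libraries of Ccdc122 differed from each other. For Cacng4 the lack of overlap followed from the filter, since no female value reached 10.

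Among the higher regions, Gm26704 had 7.204 and 2.92 for M-EPC, 29.9 and 18.5 for F-EPC, and 16.01 and 18.2 for OVX-EPC (log2 fold change 1.89). Fam120a had 2.40 and 3.89, then 15.3 and 18.5, then 11.7 and 11.1 (1.87, limma adjusted p = 0.00408). The Sdk2 region named above had 4.80 and 6.80, then 21.5 and 18.5, then 12.8 and 16.1 (1.42, limma adjusted p = 0.00859), and a second Sdk2 region 2.1 kb away was also called (1.11, limma adjusted p = 0.0181). Further calls lay in Fam135b (1.38), the gene of the initiator caspase Casp8 (1.13) and Gm16025 (1.07), and lower calls in Mb21d2 (-1.29), Pid1 (-1.37), Gm29282 (-1.20), Nos1ap, an adaptor of neuronal nitric oxide synthase (-1.17), Fyn, a Src family kinase (-1.04), Cpq (-0.94) and Mapk8, the kinase JNK1 (-0.92). The call of Fyn (limma adjusted p = 0.0499) was lost under 18 of 22 alternatives, and that of Casp8 (0.0440) under 15 of 22. Only 13.8% of the windows of the Gm16025 region and 20.7% of the Cpq region were unique. With the same regions tested, the count of 26 was 4 without M-EPC replicate 1, 16 without M-EPC replicate 2, 12 without F-EPC replicate 1, 10 without F-EPC replicate 2 and 18 or 34 without an OVX-EPC replicate, DESeq2 called 1 region and edgeR 27.

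**Figure D3:**
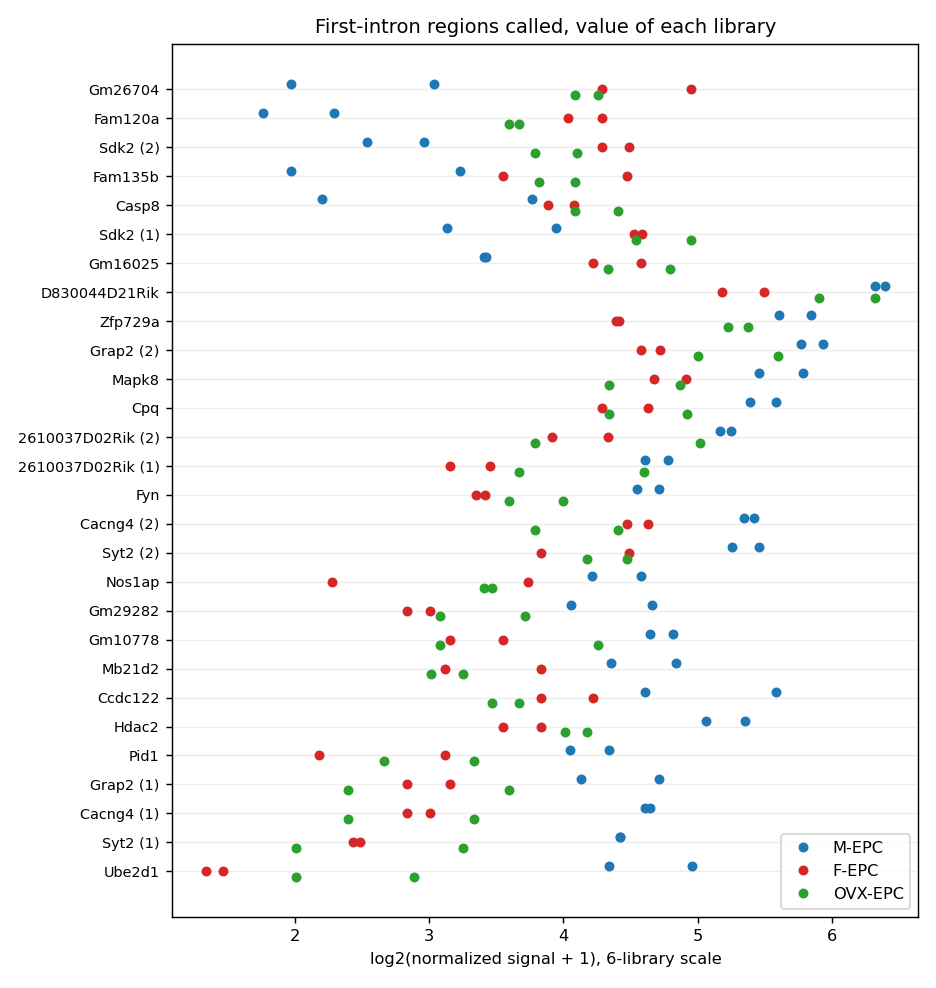
Log2(normalized signal + 1) of each library on the scale of the 6 libraries, for the 28 first-intron regions called in F-EPC against M-EPC or in both female groups against M-EPC. Each row is a region of the named host gene, numbered where a host has 2, and colours mark M-EPC (blue), F-EPC (red) and OVX-EPC (green). M-EPC lies to the left of the female libraries in the 7 top rows and to the right in most of the others.

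Changes also varied with position in the gene. Among tested regions 10 to 30 kb from the start of the host, 74.7% were lower in F-EPC than in M-EPC (median log2 fold change -0.38, 170 regions), and at 100 kb or more 39.5% were lower (median 0.10, 38 regions). The medians were -0.21 at 3 to 10 kb (101 regions) and -0.17 at 30 to 100 kb (119 regions). For OVX-EPC against M-EPC the medians were -0.26 (196 regions), -0.24 (338), -0.10 (270) and -0.07 (126) in the same 4 distance classes from 3 kb upward, with 68.4%, 70.1%, 58.1% and 54.0% lower. At 100 kb or more, the OVX-EPC class includes regions of Gm20388, whose annotated first intron spans 4384 kb and contains other genes. F-EPC does not cover that gene, so the comparisons hold different genes there. These values are descriptions over regions, which share libraries and genes, and were not tested.

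**Figure D4:**
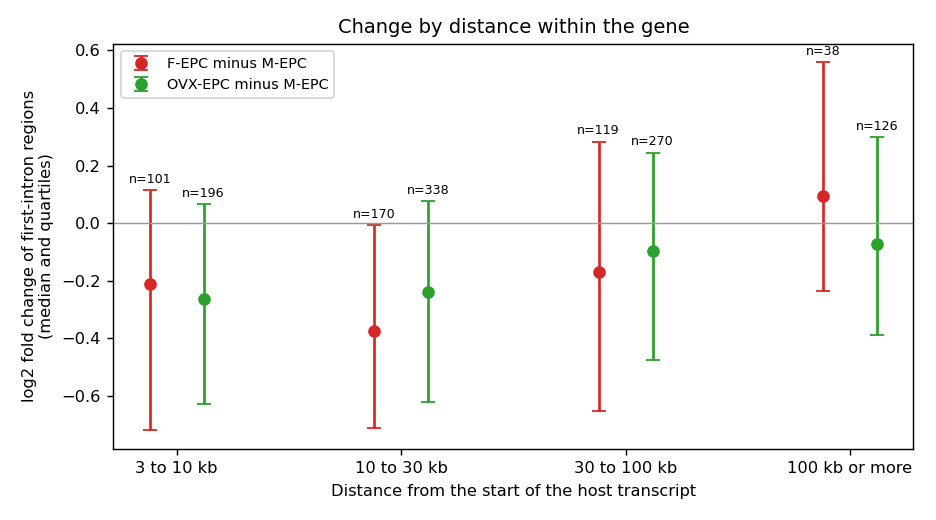
Median (point) and quartiles (bars) of the log2 fold change of tested first-intron regions, by distance from the start of the host transcript, with the number of regions above each bar. F-EPC minus M-EPC (red) runs from -0.38 at 10 to 30 kb to 0.10 at 100 kb or more, and OVX-EPC minus M-EPC (green) from -0.26 at 3 to 10 kb to -0.07. The comparisons cover different chromosomes and so different genes.

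Since many introns held several weak regions, the reads of all first-intron regions of a host gene were summed and tested. In F-EPC against M-EPC, 36 of 404 host sums were called (8.91%), 12 higher and 24 lower, beside 9.37% of all sums per gene and region class, 4.11% higher and 5.26% lower. The share of first-intron sums called was near that background. The split depended on the scaling, since TMM factors gave 19 higher and 14 lower and moved the median of all sums from -0.20 to -0.04. In OVX-EPC against M-EPC, 17 of 830 sums were called, 4 higher and 13 lower. Of all sums, sex chromosomes included, 3.3% were called there, 1.99% higher and 1.31% lower. With TMM factors, 10 first-intron sums were higher and 9 lower in that comparison. In OVX-EPC against F-EPC none of 376 sums was called by limma (26 at an unadjusted p under 0.05), nor by DESeq2 or edgeR, beside 0.0165% of all sums.

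Among the host genes with the most regions, those with called sums were higher in F-EPC. Nkain2, a gene for a protein that interacts with the sodium pump, had summed normalized read counts of 68.8 and 91.2 for M-EPC and 140 and 122 for F-EPC over 20 regions (log2 fold change 0.72 ± 0.192, limma adjusted p = 0.0123). Cdh18, a classical cadherin of neurons, had 65.0 and 77.04 for M-EPC and 107 and 128 for F-EPC (0.72 ± 0.199, limma adjusted p = 0.0151). In the comparison with OVX-EPC, Cdh18 had 55.9 and 68.7 for M-EPC and 123 and 100.2 for OVX-EPC (0.83 ± 0.217, limma adjusted p = 0.0220), so female libraries were above male ones in both. Pcdh15, a protocadherin of hair cell tip links, had 57.5 and 112 for M-EPC and 130 and 125 for F-EPC (0.67 ± 0.209, limma adjusted p = 0.0336). Sgcd, a sarcoglycan of the muscle membrane, rose by 0.68 (limma adjusted p = 0.0440). M-EPC replicate 1 was the lowest library for these genes, and without it Nkain2 (0.51), Pcdh15 (0.19) and Sgcd (0.31) were no longer called while Cdh18 was (0.60). Without either F-EPC replicate, none of these 4 sums was called (limma adjusted p from 0.114 to 0.298). In OVX-EPC against M-EPC, Nkain2 (0.45, limma adjusted p = 0.240), Pcdh15 (0.73, 0.0636) and Sgcd (0.57, 0.178) did not pass. Fgf14 (0.50, limma adjusted p = 0.0567), Hs6st3 (-0.48, 0.122) and Asic2 (-0.57, 0.121) did not pass in F-EPC, nor did Gm20388 in OVX-EPC (-0.24, 0.184).

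Of the lower sums, that of Syt2 over 8 regions went from 143 and 124 for M-EPC to 57.5 and 56.2 for F-EPC (log2 fold change -1.21 ± 0.200, limma adjusted p = 0.000100), and from 123 and 110 for M-EPC to 61.7 and 65.3 for OVX-EPC (-0.86 ± 0.211, limma adjusted p = 0.0148). This sum contains both Syt2 regions called singly, and a sum without them was not tested. Ksr2 over 2 regions fell by 1.29 in OVX-EPC (limma adjusted p = 0.000777), Cacng4 over 3 regions fell by 0.86 in F-EPC and by 1.22 in OVX-EPC, and Cdyl2 over 12 regions fell by 0.75 in OVX-EPC. Sdk2 over 4 regions rose by 0.82 in F-EPC and by 1.04 in OVX-EPC. Some sums were named after their values were seen. That of Kcnt2, a sodium-activated potassium channel, rose by 1.39 in F-EPC (limma adjusted p = 0.00504). That of S1pr3, a receptor of sphingosine 1-phosphate in the vessel wall, fell by 1.33 (0.0484). Kcnt2 lost the call under 5 of 16 alternatives and S1pr3 under 11 of 13. With the same sums tested, the count of 36 was 23 without M-EPC replicate 1, 46 without M-EPC replicate 2, 5 without F-EPC replicate 1, 10 without F-EPC replicate 2, and 9 with DESeq2. That of 17 was 10 without M-EPC replicate 1, 26 without M-EPC replicate 2, 8 without OVX-EPC replicate 1, 7 without OVX-EPC replicate 2, and 2 with DESeq2.

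**Figure D5:**
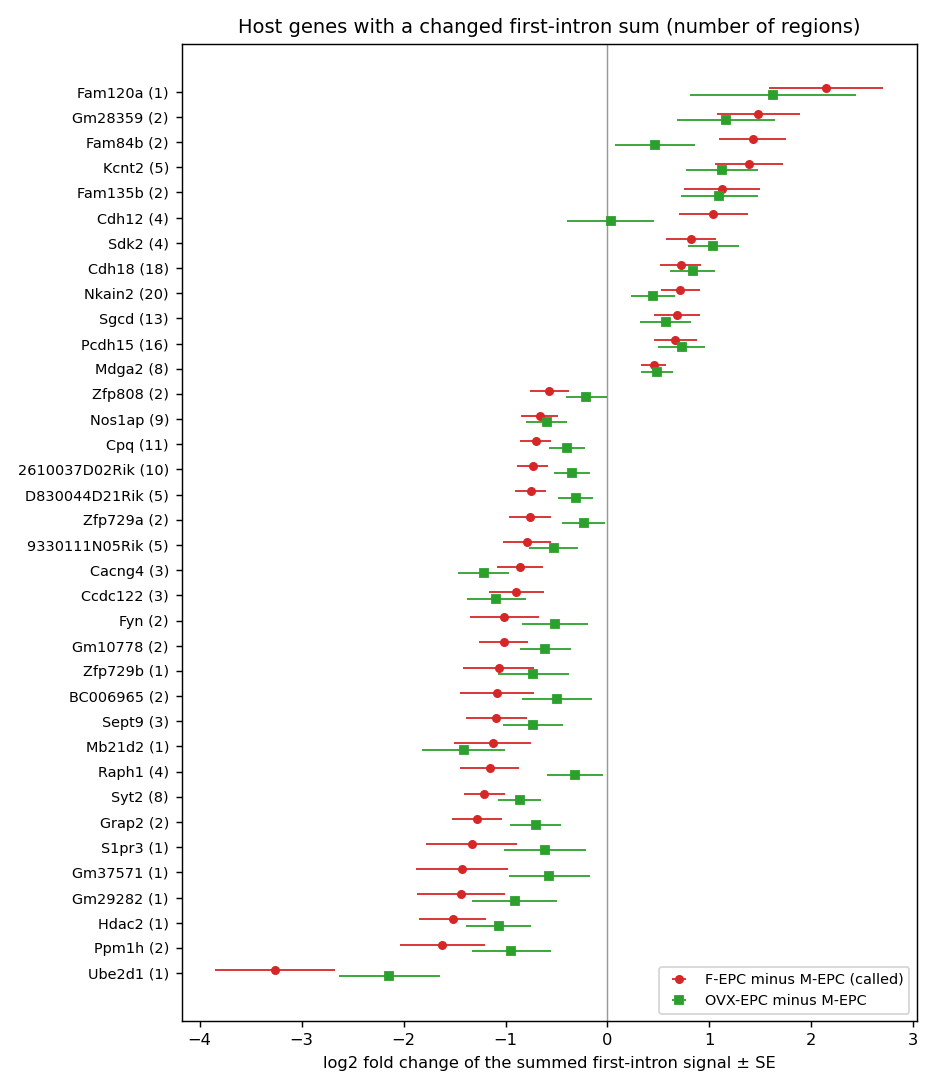
Log2 fold change ± SE of the summed first-intron signal of the 36 host genes called in F-EPC minus M-EPC (red), with the value of the same genes in OVX-EPC minus M-EPC beside it (green). The number of first-intron regions of each gene is given in parentheses, 12 genes are above 0 and 24 below in F-EPC, and the comparisons share the M-EPC libraries.

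Gene lists were then followed through the host sums. Genes of neuronal adhesion and the synapse were the list with the most hosts, 62 of 102 genes with 267 regions. In F-EPC against M-EPC, 17 of their sums were tested, and 3 were higher (Cdh18, Pcdh15 and the cadherin gene Cdh12, 1.04) and 0 lower, beside 4.11% of all sums per gene and region class higher. Their median log2 fold change was 0.42, beside -0.17 over all first-intron sums tested. In OVX-EPC, 38 were tested, and 2 were higher (Cdh18 and Cntnap5a, a contactin-associated protein, 0.87) and 0 lower. Of all sums, sex chromosomes included, 1.99% were higher. The median of the list was 0.27, beside -0.13 over all first-intron sums. With the same sums tested, the count of higher sums in F-EPC was 0 without either F-EPC replicate, and without M-EPC replicate 1 the list had 2 higher sums and 1 lower. In OVX-EPC the count was 0 without either OVX-EPC replicate, 1 without M-EPC replicate 1 and 4 without M-EPC replicate 2. DESeq2 called 0 in both comparisons, and edgeR 4 and 3. The medians stayed above 0 under all alternatives tried, which reuse the same libraries. Ptprt (0.25, limma adjusted p = 0.452) and Cdh13, the T-cadherin gene of vessels and neurons (0.22, 0.500), carried the most reads of the list and were not called in OVX-EPC, nor was Tmem132d (-0.13, 0.727).

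Zinc finger genes, found by their symbols, were hosts in 47 cases with 85 regions, at a median of 20.7 CPM against 11.6 over all first-intron regions. Of 10 sums tested in F-EPC against M-EPC, 3 were lower (Zfp729a -0.76, Zfp729b -1.07 and Zfp808 -0.57) and 0 higher, beside 5.26% of all sums lower, with a median of -0.68 beside -0.17 over all first-intron sums. In OVX-EPC none of 33 was called by limma (5 at an unadjusted p under 0.05), nor by DESeq2 or edgeR, with a median of -0.17, near the -0.13 of all first-intron sums. The median share of unique windows was 31.4% for the regions of Zfp808 and 49.7% for those of Zfp729a, so reads placed there can come from other copies. The count of lower sums was 0 without M-EPC replicate 1 or either F-EPC replicate, 2 without M-EPC replicate 2, and 1 with TMM factors, edgeR or DESeq2. Zfp442 (-0.49, limma adjusted p = 0.143), Zfp992 (-0.01, 0.990) and Zfp120 (-0.31, 0.390), which held the most reads, were not called in OVX-EPC.

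Predicted genes with Gm or Rik symbols were hosts in 341 cases with 697 regions. Of 77 sums tested in F-EPC, 6 were lower, among them D830044D21Rik (-0.75, limma adjusted p = 0.000844), 2610037D02Rik (-0.73, 0.00123) and Gm10778 (-1.02, 0.00417), and 1 was higher, the pseudogene Gm28359 (1.48, 0.0149), so the share called was near the 9.37% of all sums. With the same sums tested, 0 were called without F-EPC replicate 1 and 2, both lower, without F-EPC replicate 2. In OVX-EPC 1 of 156 was lower, 8030442B05Rik (-1.18, limma adjusted p = 0.00855), beside 1.31% of all sums lower, sex chromosomes included. E030030I06Rik, which held the second strongest region, did not pass in F-EPC (-0.06, 0.802).

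The remaining lists had few first-intron regions and no sum called by limma, DESeq2 or edgeR. Of 50 endothelial and angiogenic genes 6 were hosts, with 8 regions, led by Mmrn2, an endothelial matrix protein gene (0.43, limma adjusted p = 0.500 for F-EPC), Pecam1 and Fli1. Of 48 haematopoietic genes 6 were hosts, with 1 region each, among them the cytokine receptor gene Flt3 (-0.95 for OVX-EPC, limma adjusted p = 0.287). Of 36 genes of H3K9 methylation 3 were hosts, and Jmjd1c, a demethylase family gene, had a log2 fold change of -1.14 for F-EPC (limma adjusted p = 0.0945). Of 44 imprinted genes 8 were hosts with 19 regions, led by Airn, the antisense RNA of Igf2r (-0.53 for OVX-EPC, limma adjusted p = 0.171). Of 85 genes of TNF, MAPK and T cell receptor signalling 17 were hosts with 27 regions, and none of the 8 sums tested in F-EPC was called, with a median of -0.34 (2 at an unadjusted p under 0.05). Mapk8 was the gene of this list with a region called lower in both female groups together, and its sum had log2 fold changes of -0.68 for F-EPC (limma adjusted p = 0.0847) and -0.76 for OVX-EPC (0.108). Grap2, Fyn and Casp8, named above, were not on this list, so its lack of called sums does not cover them. In F-EPC against M-EPC the sums of Grap2 (-1.28, limma adjusted p = 0.000497) and Fyn (-1.01, 0.0484) were called lower. Fyn lost the call under 11 of 15 alternatives and Grap2 under 2 of 17.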

How the data were processed

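H3K9me3 CUT&Tag was deposited as 3 pairwise region tables of the 6 libraries. The signal columns are read counts normalized by the authors within each pair of groups (size factors), and whole reads were recovered from 100% of these signal values within a tolerance of 0.01. Fold change and p-value columns of the authors were not used. Per the labels, BWA, MACS2 and mm10 were used, whereas the methods of the study name Bowtie2, Picard, HOMER and ChIPseeker in DolphinNext, so the aligner is uncertain. Depth was 288353 to 573821 reads in regions per library. The lowest total was that of the incomplete F-EPC replicate 1, which held the most reads of all libraries on covered regions. Groups were taken from the labels.

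All regions of a table were tested together on log2(value + 1) with limma (values of at least 10 in at least 2 libraries) and Benjamini-Hochberg adjustment, called at 0.05. Sums per host gene and region class were tested in the same way. Shares of reads were compared by an exact permutation test. Alternatives were other pseudocounts, filters and scalings, DESeq2 and edgeR on the recovered reads, a GC correction, a replicate block and leaving out each library, also with the same regions tested. Scripts were tested on simulated data. Introns were measured on the GENCODE M21 annotation of GRCm38, and uniqueness is the share of 25-base windows that occur once in the genome.

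Named regions were the 5 with the smallest p per direction and comparison among called regions without overlap (up to 3 uncalled where a direction had few calls), the 10 strongest, the 10 hosts with the most regions, and of each list the called hosts and the 3 with the most reads. The regions, lists and comparisons were chosen with earlier results of these data known.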

Additional observations from a re-analysis of the deposited data

Results flagged for a closer look

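A region in the first intron of Lgmn, the gene of the lysosomal protease legumain (chr12:102429614-102430013), stood out because F-EPC lay above M-EPC while OVX-EPC did not. On the scale of the 6 libraries it had normalized read counts of 10.8 and 10.7 for M-EPC, 15.3 and 21.2 for F-EPC, and 10.7 and 8.07 for OVX-EPC. The log2 fold change of OVX-EPC against F-EPC was -0.88, with a limma adjusted p of 0.768, so the difference did not pass the test over all regions. That of F-EPC against M-EPC was 0.70 and did not pass either (limma adjusted p = 0.245).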

How the results depend on the processing

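None of 43 called region values and none of 53 called sums changed sign under an alternative, but all 43 and all 53 lost the call under at least 1. The alternatives reuse the libraries in which these values were called, so a change of sign was unlikely from the start. In F-EPC against M-EPC the 13 regions became 23 with a pseudocount of 5, 21 without a filter, 1 with DESeq2, 33 with GC content removed, 37 with a replicate block and GC content removed, and 0 to 11 without 1 library. Their median (-0.26) became -0.20 with a pseudocount of 5, -0.066 without a filter, -0.49 at a minimum of 30, -0.14 scaled to the total of region reads, -0.31 with GC content removed, and -0.37 to -0.17 without 1 library. The 36 sums became 9 with DESeq2 and 1 to 47 without 1 library. In OVX-EPC against M-EPC the 4 regions became 2 with a pseudocount of 0.1, 9 without a filter, 8 at a minimum of 30, 0 with DESeq2, 8 with GC content removed, 12 with a replicate block and GC content removed, 1 among regions with F-EPC reads, and 0 to 1 without 1 library. The median (-0.18) became -0.089 without a filter and -0.29 to -0.11 without 1 library, and the 17 sums became 26 with a pseudocount of 5, 27 without a filter, 28 at a minimum of 30, 2 with DESeq2 and 2 to 25 without 1 library. The share difference of -0.248 points became 0.0276 at a minimum of 30 and -0.313 to -0.183 without 1 library. In F-EPC against M-EPC the share difference ran from -0.470 to -0.260 and in OVX-EPC against F-EPC from 0.0234 to 0.200 without 1 library. In OVX-EPC against F-EPC the median of 0.02 became 0.19 at a minimum of 30 and -0.05 to 0.11 without 1 library, and 0 to 1 sums were called without 1 library. The 26 regions of both female groups against M-EPC became 10 at a minimum of 30, 1 with DESeq2, 42 with GC content removed and 4 to 24 (4, 12, 12, 10, 18 and 24) without 1 library. Calls over all regions tested moved as well. In F-EPC against M-EPC they went from 146 of 8139 to 242 with a pseudocount of 5 and 353 with GC content removed. They were 231 of 26999 without a filter and 7 of 9084 with DESeq2. In OVX-EPC against M-EPC they went from 76 to 98 of 16931 with GC content removed, and were 145 of 58493 without a filter. In both female groups they went from 329 to 446 of 8695 with GC content removed. The causes were not tested. Leaving out 1 library while keeping the regions tested with all libraries was chosen after seeing the data, since the filter otherwise removes regions high in the lone library alone. It gave 7 to 39 regions (12 and 39 without M-EPC replicates 1 and 2), a median of -0.36 to -0.21 and 5 to 46 sums in F-EPC against M-EPC, 0 to 11 regions (0, 0, 5 and 11), a median of -0.28 to -0.086 and 7 to 26 sums in OVX-EPC against M-EPC, and 4 to 34 regions (4 and 16 without M-EPC replicates 1 and 2) in both female groups. Where 1 library was left out, the lone library was assumed to vary like the others.

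Replicate numbers were taken to name libraries and not to pair them. The correlations of replicate differences between groups were -0.047, -0.013 and -0.021 over 8695 regions. Counting error is large at this depth, so these values cannot tell whether libraries were paired. With a replicate block, 18 regions were called in F-EPC against M-EPC, 7 in OVX-EPC against M-EPC, 0 in OVX-EPC against F-EPC and 19 in both female groups against M-EPC. With 5 to 7 reads in a median covered region, depth limits what single regions can show.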
